A study of Mus musculus with 6 samples.

Results

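Gas6 and its receptors Axl, Mertk and Tyro3 were followed in regenerating mouse liver with and without Socs3 in hepatocytes. The group was defined by gene symbol, and every probe set that the platform annotation pairs with Gas6, Axl, Mertk or Tyro3 was taken. That gave 4 genes among the 18193 with a probe set of their own, and 7 probe sets. The family was chosen on the high Gas6 value in Cre plus livers, so its comparison between the genotypes is a description and carries no test. The Cre plus livers (n = 3 arrays) came from C57BL/6 mice with both Socs3 alleles floxed and a Cre transgene driven by the albumin promoter, which removes Socs3 from hepatocytes. The Cre minus livers (n = 3 arrays) came from littermates that carry the same floxed alleles and no Cre, so both groups share the floxed gene and an effect of Cre alone cannot be told apart. All livers were collected 18 h after partial hepatectomy, and the labels give no age. Total RNA from whole liver (2 ug per array) was hybridised to Affymetrix Mouse Genome arrays, 1 array per sample.

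Gas6 is a secreted protein whose N-terminal Gla domain, once carboxylated with vitamin K, binds phosphatidylserine on the surface of dying cells and shed membranes. Its other end binds the receptor tyrosine kinases Tyro3, Axl and Mertk, the TAM receptors, so that it bridges a dying cell to a phagocyte. Protein S, encoded by Pros1, is the related ligand of Tyro3 and Mertk. In mouse dendritic cells the receptors work with the type I interferon receptor to induce Socs1 and Socs3, which damp inflammation. In liver Mertk is known from Kupffer cells and endothelium, and Axl from macrophages and stellate cells.

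The start regions of the ligand and of the best-measured receptor are shown because Socs3 restrains STAT3, and a STAT site in such a window would be a feature the family could share. Each window runs from 250 bases before to 50 bases after a transcription start in RefSeq (GRCm38.p6), and all 4 genes had 1. The Gas6 window is chr8:13494486-13494785 on the minus strand and the Mertk window is chr2:128698665-128698964 on the plus strand. Capitals mark GC boxes, GGGCGG on either strand.
Gas6: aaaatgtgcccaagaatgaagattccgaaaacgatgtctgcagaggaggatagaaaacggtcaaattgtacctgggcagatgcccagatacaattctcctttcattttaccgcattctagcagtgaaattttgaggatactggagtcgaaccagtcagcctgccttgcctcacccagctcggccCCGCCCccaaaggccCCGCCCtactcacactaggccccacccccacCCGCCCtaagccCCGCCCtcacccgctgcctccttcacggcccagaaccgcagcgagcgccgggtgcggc
Mertk: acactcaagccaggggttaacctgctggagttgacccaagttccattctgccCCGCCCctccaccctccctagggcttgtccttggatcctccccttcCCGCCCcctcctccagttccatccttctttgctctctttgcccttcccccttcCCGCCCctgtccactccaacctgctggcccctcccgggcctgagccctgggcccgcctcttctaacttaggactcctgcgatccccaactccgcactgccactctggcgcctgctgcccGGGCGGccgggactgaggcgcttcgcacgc
The STAT motif TTCNNNGAA was in neither, nor in the windows of Axl (chr7:25788684-25788983, minus strand) and Tyro3 (chr2:119799264-119799563, plus strand). It is in 8.30% of the 32851 windows of this kind, so its letters are missing from most genes, and this says nothing about STAT3 binding. The motifs TATAAA (13.6% of windows) and CCAAT (37.4%) were also in none of the 4, on both strands. GC boxes, found in 35.7% of windows, were in all 4 genes. There were 4 in Gas6, 4 in Mertk, 2 in Axl and 6 in Tyro3, some of the last overlapping. GC content was 58.3% in the Gas6 window, 66% in Mertk, 60.3% in Axl and 73.3% in Tyro3, against a median of 52.7% over all windows.

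The deposited values are log2 GCRMA values, a scale with no read depth on which a difference of 1 is a doubling. Array medians lay between 2.98 and 3.02, and probe sets near or under them carry little signal over background. A probe set was taken as measured when it passed a log2 value of 4 on at least 3 of the 6 arrays, which left 15563 probe sets and 8554 genes. Socs3, the deleted gene, was lower on every Cre plus array. Its brightest probe set read 7.44, 6.69 and 7.47 in the Cre plus livers A, B and C, against 9.09, 9.30 and 9.24 in the Cre minus livers. The log2 difference was -2.01 ± 0.22 (SE), yet Socs3 did not pass limma's adjusted p under 0.05 over all genes. No gene with lower values in Cre plus did. Missing that threshold therefore does not show that a gene is unchanged. Cre plus B was closer to the Cre minus arrays than to its own group. Its correlations over the genes tested were 0.987 to 0.989 with the other Cre plus arrays and 0.991 to 0.993 with the Cre minus arrays. Cre plus A and C correlated at 0.990 with each other and at most at 0.988 with the Cre minus arrays. Hepatocyte markers were all measured (9 of 9 with a probe set), as were 18 of 20 Kupffer cell and macrophage markers, and none of 6 lymphocyte markers was. The labels do not say that each array is a separate mouse, so errors measure the spread between these samples and may be partly technical.

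The ligand was higher in Cre plus livers. Gas6 (1417399_at) read 9.88, 10.12 and 9.78 in the Cre plus livers A, B and C, against 8.92, 8.58 and 8.91 in the Cre minus livers A, B and C. Every Cre plus liver lay above every Cre minus liver, and the gap between the closest arrays of the groups was wider than the range within either. The means were 9.93 ± 0.18 in Cre plus and 8.80 ± 0.19 in Cre minus (SD, n = 3 each), a log2 difference of 1.12 ± 0.13 (SE), or 2.18-fold (95% interval 1.74 to 2.73). Of all genes tested, 40 had a larger positive difference. Leaving out any single array kept the Gas6 difference between 1.01 and 1.20. The liver with the most Gas6 signal was Cre plus B, whose overall profile lay closest to Cre minus.

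The other Gas6 probe set gave no reading. Probe set 1459585_at stayed between 1.87 and 1.88 on all 6 arrays, and only 1.63% of probe sets had a lower mean. It is annotated to an expressed sequence tag, whereas 1417399_at is annotated to the Gas6 messenger RNA. The Gas6 result therefore rests on 1 probe set, and the mean over both gives a log2 difference of 0.56. In RefSeq (GRCm38.p6) Gas6 spans 13465374 to 13494535 on chromosome 8, a stretch that overlaps the Tmem255b gene (13435113 to 13493434), for which no probe set was analysed here.

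**Figure D1:**
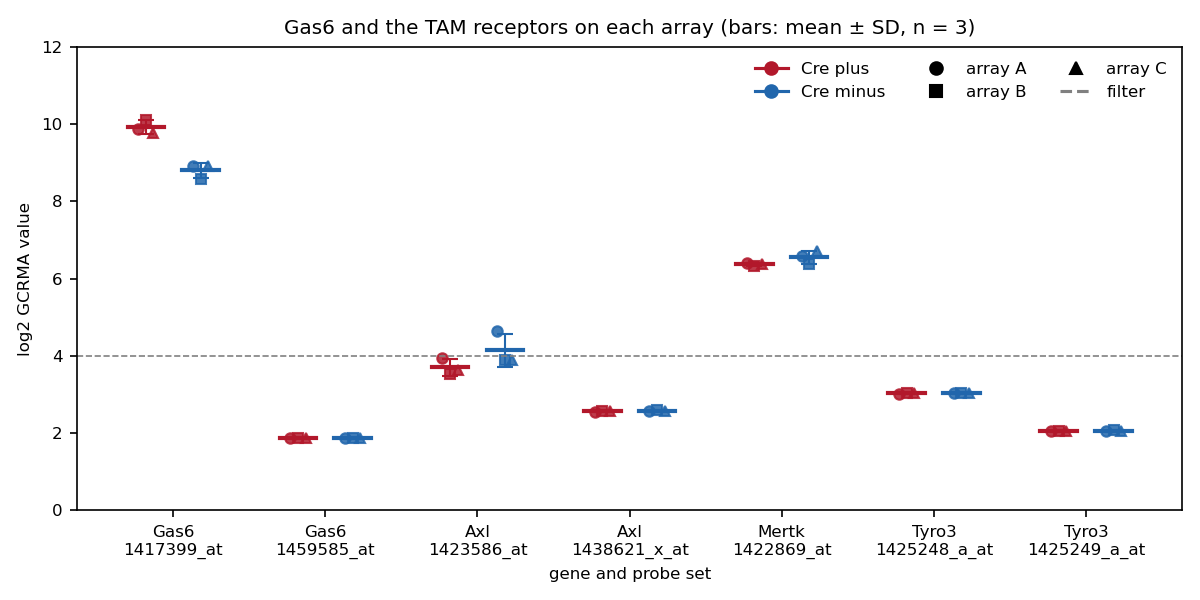
Log2 GCRMA value (y axis) of each of the 7 probe sets (x axis) on each array, with Cre plus left of Cre minus, symbols for arrays A, B and C, and bars for mean ± SD (n = 3). The Gas6 probe set 1417399_at separates the groups at 9.93 against 8.80, Mertk lies near 6.4 to 6.6 in both, Axl straddles the dashed filter line at 4, and the remaining probe sets lie on flat lines under it.

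Mertk, the receptor that macrophages use to engulf apoptotic cells, was the receptor with a clear signal. It read 6.40, 6.33 and 6.38 in the Cre plus livers A, B and C, against 6.58, 6.38 and 6.72 in the Cre minus livers A, B and C. The Cre plus livers were close together and lay within or under the range of the Cre minus livers, and the groups overlapped at Cre minus B. The log2 difference was -0.19 ± 0.09 (SE, n = 3 each, 95% interval -0.42 to 0.04), so a fall to 74.5% of the Cre minus signal and a gain of 2.97% both lie inside the interval. Without Cre minus C the difference was -0.11, and without Cre minus B it was -0.28.

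Axl, the receptor for which Gas6 is the ligand, was read at the edge of background. On 1423586_at it had 3.95, 3.53 and 3.64 in the Cre plus livers A, B and C, against 4.64, 3.89 and 3.90 in the Cre minus livers A, B and C. Only Cre minus A passed a log2 value of 4, so the probe set missed the filter. The groups overlapped, and the high Cre minus mean came from that array. The log2 difference was -0.43 ± 0.24 (SE, n = 3 each, 95% interval -1.02 to 0.15), and -0.18 without Cre minus A. The other Axl probe set, 1438621_x_at, lay between 2.55 and 2.59 on all arrays.

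Tyro3, best known from the nervous system, was not detectable. Its probe sets stayed flat, 1425248_a_at between 3.01 and 3.04 and 1425249_a_at between 2.05 and 2.07. Their log2 differences were -0.01 ± 0.05 and -0.01 ± 0.05 (SE, n = 3 each), with the error set mainly by the spread shared across all probe sets. On values this close to the bottom of the scale a change in Tyro3 RNA would not be seen. Of the 7 probe sets of the family, 2 passed the filter, 1 for Gas6 and 1 for Mertk.

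Mertk, the receptor with a clear signal, had no higher value beside Gas6. Within each array the shift of Gas6 from its Cre minus mean was set against that of Mertk. The shift of Gas6 exceeded that of Mertk by 1.24, 1.54 and 1.15 in the Cre plus livers A, B and C, against 0.09, -0.04 and -0.05 in the Cre minus livers A, B and C. The Gas6 to Mertk ratio thus differed by 1.31 on the log2 scale, or 2.49-fold. Most of that is the Gas6 difference on which the family was chosen, so it is a description and supports nothing further. Axl and Tyro3, under the filter, could not show whether they followed Gas6.

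Most markers of Kupffer cells, macrophages and sinusoidal endothelium, known to carry Mertk or Axl, had lower values in Cre plus. None passed the adjusted threshold. Markers of stellate cells, which are also known to carry Axl, split and are given below. Of 18 measured Kupffer cell and macrophage markers 17 were lower in Cre plus, where 53.5% of all genes tested were lower, with a median log2 difference of -0.34 beside -0.01 for all genes. Their summed signal on the linear scale was 5689 to 6657 in Cre plus and 7549 to 8009 in Cre minus, and Timd4 and Folr2 were under the filter. Tyrobp, an adaptor of myeloid receptors, had a log2 difference of -0.41 ± 0.07 and did not pass (limma adjusted p = 0.105). The mean shift of this list was -0.23, -0.34 and -0.43 in the Cre plus livers A, B and C. Its 1 higher marker, Mpeg1, had 0.42 ± 0.14 with overlapping groups (limma adjusted p = 0.276). Of 13 sinusoidal endothelial markers 11 were lower (median -0.24, summed signal 3007 to 3632 in Cre plus and 3757 to 4191 in Cre minus), and Cdh5 and Emcn were under the filter. Fcgr2b, an Fc receptor of these cells, had -0.54 ± 0.09 (adjusted p = 0.110), and Ptprb, a phosphatase of endothelium, had -0.27 ± 0.08 (adjusted p = 0.223). The 2 higher ones, Lyve1 at 0.91 ± 0.56 and Flt4 at 0.03 ± 0.18, had overlapping groups. In whole liver, fewer cells of a type and less RNA per cell cannot be told apart, and the part of these cells in the Mertk and Axl values was not tested.

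Stellate cells and fibroblasts are a known source of Gas6 in injured rodent liver, and their markers split. The Gas6 shift was 1.08, 1.32 and 0.97 in the Cre plus livers A, B and C, beside a mean shift of these markers of 0.20, -0.05 and 0.25. Of 15 such markers measured 7 were higher and 8 lower (median -0.02, summed signal 3244 to 3952 in Cre plus and 3162 to 3363 in Cre minus), with Col1a2 under the filter. The groups did not overlap in 2 markers with higher values in Cre plus (Rgs5 and Pdgfra) and in 0 with lower ones. Among all genes tested 9.21% were higher in this way and 11.9% lower. Rgs5, a G protein regulator of pericytes, read 8.92, 8.93 and 8.59 in the Cre plus livers A, B and C, against 8.36, 8.24 and 8.32 in the Cre minus livers A, B and C, a difference of 0.50 ± 0.11 (adjusted p = 0.164). Of its 4 measured probe sets 3 had higher means in Cre plus, 1420941_at by 1.83, and 1420940_x_at had a difference of -0.54. Pdgfra, a receptor for platelet-derived growth factor, read 6.44, 5.98 and 6.58 in the Cre plus livers A, B and C, against 5.81, 5.83 and 5.97 in the Cre minus livers A, B and C, a difference of 0.47 ± 0.16 (adjusted p = 0.285). Timp1, an inhibitor of metalloproteinases, had the largest difference of the list at 1.17 ± 0.50 (adjusted p = 0.352). Its groups overlapped, and its highest value was 6.80 in Cre plus A. This 1 gene lifts the mean shift of the list more than its median. Among the 8 lower markers Acta2 had -0.20 ± 0.13, Tagln -0.20 ± 0.18 and Pdgfrb -0.18 ± 0.25, all with overlapping groups. The 9 hepatocyte markers had a median of -0.04, with 4 higher and 5 lower and summed signals of 201580 to 211505 in Cre plus and 212343 to 215764 in Cre minus. Cps1, an enzyme of the urea cycle, had -0.50 ± 0.18 with overlapping groups (adjusted p = 0.293). Neutrophil markers were uneven, since S100a8 read 10.10 in Cre plus A and 8.19 to 8.54 on the other 5 arrays, and the biliary list had 1 measured gene of 5, Sox9. The part of these cells in the Gas6 value was not tested.

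**Figure D2:**
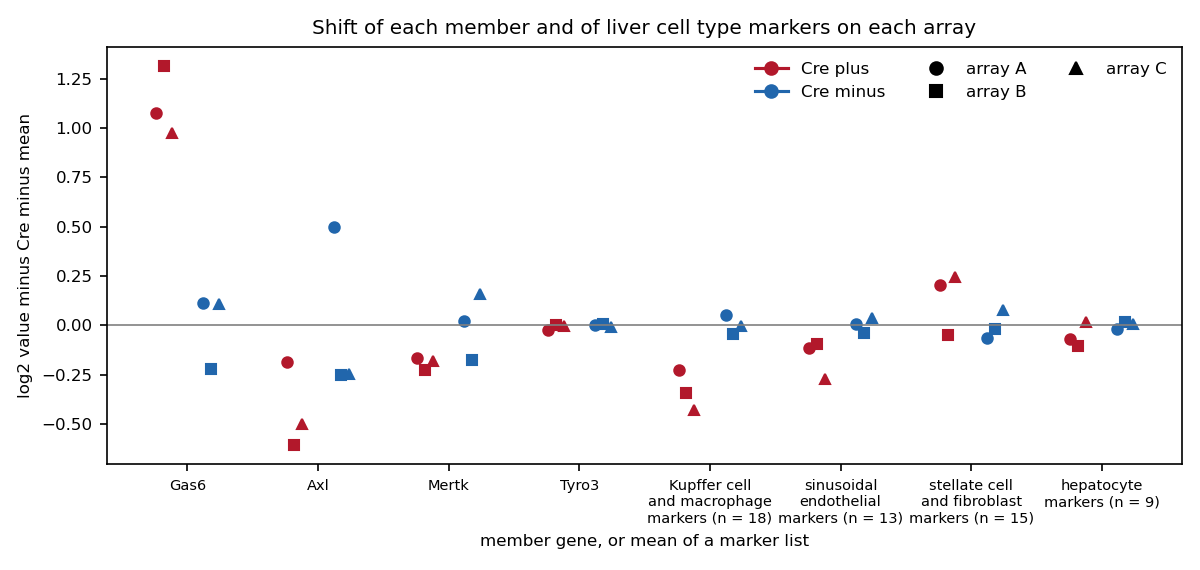
Shift from the Cre minus mean (y axis, log2) of each member, and of the mean of each marker list with at least 9 measured genes (x axis), for every array, Cre plus left of Cre minus. Gas6 stands at 0.97 to 1.32 in Cre plus while Mertk and the means of the macrophage and endothelial lists lie under 0 there. Axl and Tyro3 are drawn although their probe sets missed the filter.

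Related genes of the pathway were read next, from 7 lists of 76 genes in all that exclude the members. Of these, 73 had a probe set here and 52 were tested. No listed gene passed limma's adjusted p under 0.05 over all genes. Of all genes 0.0234% passed it (2 of 8554, 2 higher and 0 lower in Cre plus). That count was 13 without Cre plus B, 1 without Cre plus A and 0 without any single Cre minus array. With limma's p under 0.05 before adjustment there were 4 genes with higher values (7.69%) and 6 with lower ones (11.5%), against 6.62% and 8.21% of all genes, so the pathway as listed lay near the background. Leaving out Cre plus A or Cre minus C turned the 4 into 2, and leaving out Cre minus A or Cre minus C turned the 6 into 3. The groups did not overlap in 5 higher and 8 lower listed genes, against 9.21% and 11.9% of all genes.

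The other measured ligands, Pros1 and Lgals3, did not pass the test. Pros1, which encodes protein S, read 9.33, 9.27 and 9.25 in the Cre plus livers A, B and C, against 9.27, 9.18 and 9.18 in the Cre minus livers A, B and C. Its log2 difference was 0.07 ± 0.06 (adjusted p = 0.592), with overlapping groups and a 95% interval of -0.07 to 0.21. Lgals3, encoding galectin-3, a ligand of Mertk, had 0.10 ± 0.07 (adjusted p = 0.541). Tub and Tulp1, proteins reported as further ligands, were under the filter.

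The enzymes that make Gas6 active did not pass the test, and their means split. Ggcx, the carboxylase that modifies the Gla domain, read 7.52, 7.93 and 7.72 in the Cre plus livers A, B and C, against 8.20, 7.97 and 8.07 in the Cre minus livers A, B and C. All Cre plus values were lower, but Cre plus B nearly met Cre minus B, and the log2 difference of -0.36 ± 0.12 did not pass (adjusted p = 0.278). A dimmer Ggcx probe set gave -0.23 with overlapping groups. Vkorc1, the reductase that recycles vitamin K and the target of warfarin, had -0.22 ± 0.15 (adjusted p = 0.538), and its paralogue Vkorc1l1 had 0.03 ± 0.07 (adjusted p = 0.859). A dimmer Vkorc1l1 probe set gave 0.15 with overlapping groups.

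Other Gla proteins, which need the same modification, were flat or lower. Of 7 measured, all had differences under 0, where 53.5% of all genes tested did, and the median log2 difference was -0.05. Prrg2, a transmembrane Gla protein, had the largest difference at -0.42 ± 0.09 (adjusted p = 0.169), with 6.36, 6.37 and 6.20 in Cre plus and 6.88, 6.66 and 6.64 in Cre minus, in the order A, B and C. The anticoagulant Proc had -0.16 ± 0.09, Proz -0.11 ± 0.18 and prothrombin (F2) -0.03 ± 0.06, none of which passed. The hepatocyte-made clotting factors F7, F9 and F10 lay between -0.05 and 0.00.

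The 2 proteases that shed the receptors were both higher in mean, where 46.5% of all genes tested were. Adam10 read 9.40, 9.22 and 8.83 in the Cre plus livers A, B and C, against 8.78, 8.77 and 8.77 in the Cre minus livers A, B and C. The Cre plus livers were spread and Cre plus C lay just over the Cre minus group. The log2 difference of 0.37 ± 0.15 did not pass (adjusted p = 0.327). Adam17 had 0.26 ± 0.11 (adjusted p = 0.348) with overlapping groups.

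On the receptor signalling list, which includes the type I interferon receptor, 9 of 10 measured genes had higher means, where 46.5% of all genes did. The median log2 difference was 0.07, and none passed the threshold. Ifnar1, a chain of the type I interferon receptor with which TAM receptors work, read 7.05, 7.02 and 7.05 in the Cre plus livers A, B and C, against 6.90, 6.64 and 6.69 in the Cre minus livers A, B and C, a difference of 0.30 ± 0.08 (adjusted p = 0.221). Pik3r1, the regulatory subunit of PI3 kinase, had 0.68 ± 0.23 (adjusted p = 0.279), led by 9.04 in Cre plus A. Ranbp9, reported to bind Axl, had 0.15 ± 0.07 (adjusted p = 0.420), and the phospholipase Plcg1 was the lower one at -0.10 ± 0.07 (adjusted p = 0.564). Socs1, a target of TAM signalling in dendritic cells, stayed between 1.88 and 1.89 and was not detectable.

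Genes for recognising and engulfing apoptotic cells had lower values in 15 of 21 measured members, where 53.5% of all genes tested did. Their median log2 difference was -0.06. The complement genes C1qa and C1qc, made by macrophages and tagging dying cells, had -0.39 ± 0.07 (adjusted p = 0.106) and -0.47 ± 0.12 (adjusted p = 0.192). C1qb, on the same list, had -0.18 ± 0.10 with overlapping groups (adjusted p = 0.464). Anxa5, a phosphatidylserine-binding protein, had -0.17 ± 0.07 (adjusted p = 0.330), and Stab2, a scavenger receptor of sinusoidal endothelium, -0.24 ± 0.10 (adjusted p = 0.348). C1qa, C1qb, C1qc and Stab2 are also on the cell type marker lists above, on which most genes were lower as well. Mfge8, another bridge between phosphatidylserine and phagocytes, had -0.04 with overlapping groups.

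The nuclear receptor LXR induces Mertk in mouse macrophages, and on its list only Abca1 had a higher mean in Cre plus. Abca1, a cholesterol exporter and LXR target, read 12.27, 11.94 and 12.24 in the Cre plus livers A, B and C, against 11.40, 11.53 and 11.35 in the Cre minus livers A, B and C. The groups were well apart, and the difference of 0.72 ± 0.11 missed the threshold (adjusted p = 0.0985). The receptor gene Nr1h3 had -0.22 ± 0.09 (adjusted p = 0.333). Srebf1, a lipogenic target, had -0.20 ± 0.17, and Mylip, a target that degrades the LDL receptor, had -0.08 ± 0.08. Of the 7 measured genes 6 were lower, where 53.5% of all genes tested were. The plot of differences by list sets these beside the members.

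**Figure D3:**
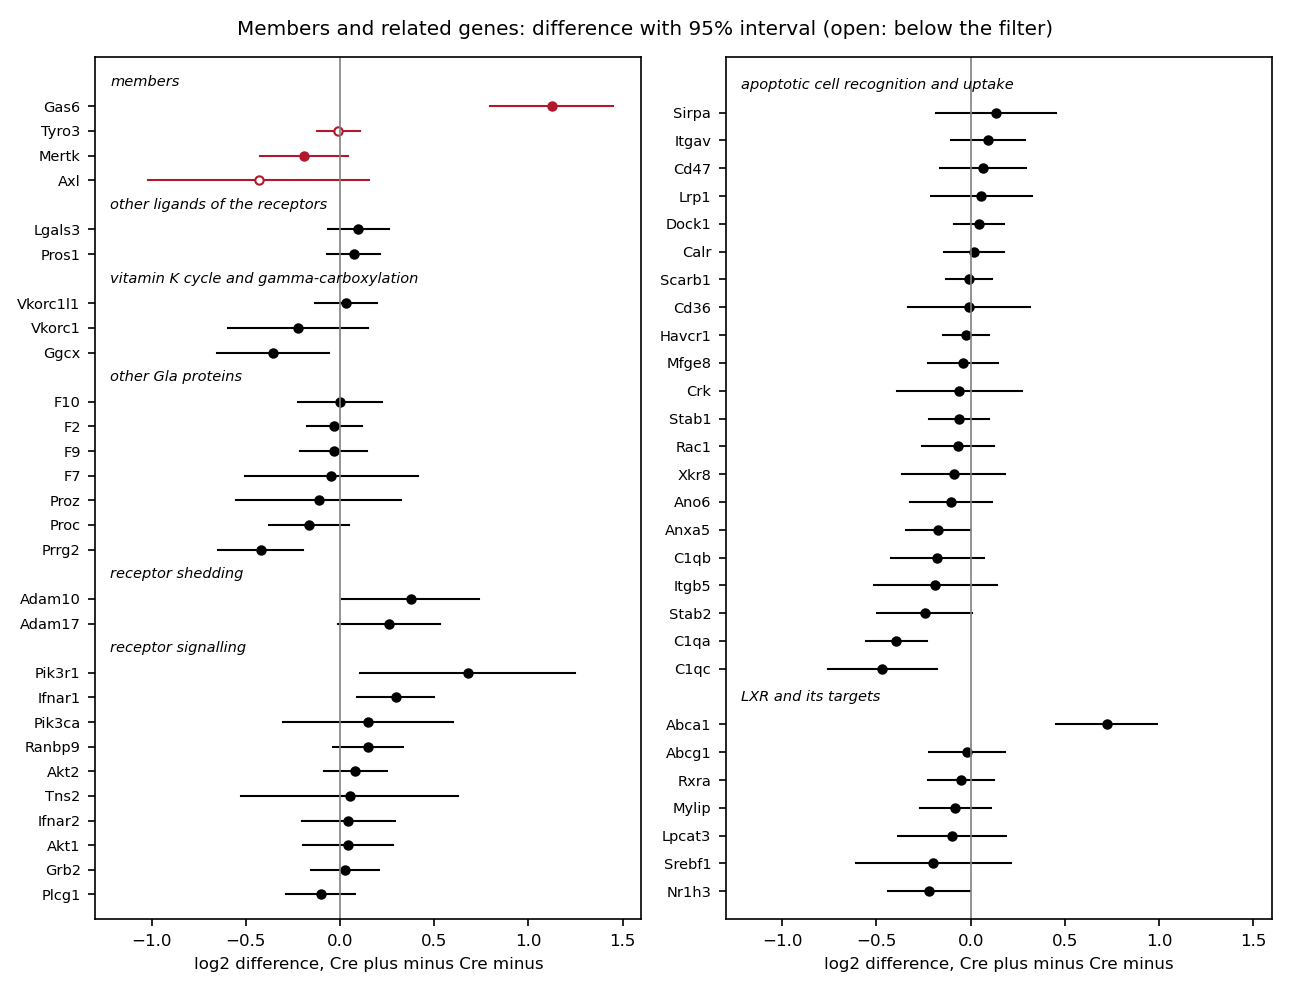
Log2 difference, Cre plus minus Cre minus (x axis), with its 95% interval for the 4 members (red) and the 52 related genes tested (black), grouped by list. Gas6 lies at 1.12, Mertk at -0.19, and the highest related genes are Abca1 at 0.72 and Pik3r1 at 0.68. The family was chosen on the high Gas6 value, so its place to the right of the related genes is no result. Axl and Tyro3 are drawn although their probe sets missed the filter.

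The genes nearest to Gas6 in pattern were found by centring each gene on its mean over the 6 arrays and taking the root mean square difference from Gas6. The smallest were 0.14 for Rcan2, a regulator of calcineurin, 0.18 for Ablim1, an actin-binding protein, 0.19 for the polo-like kinase Plk3, 0.19 for Osmr, the oncostatin M receptor subunit, and 0.20 for Susd6. The median over all genes was 0.59. Each of the 5 was higher in every Cre plus liver, as a search for genes like Gas6 requires. Their log2 differences were 1.07 ± 0.14, 0.83 ± 0.10, 1.17 ± 0.14, 1.05 ± 0.16 and 0.75 ± 0.10 (SE) in that order. Mertk lay at 0.67.

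**Figure D4:**
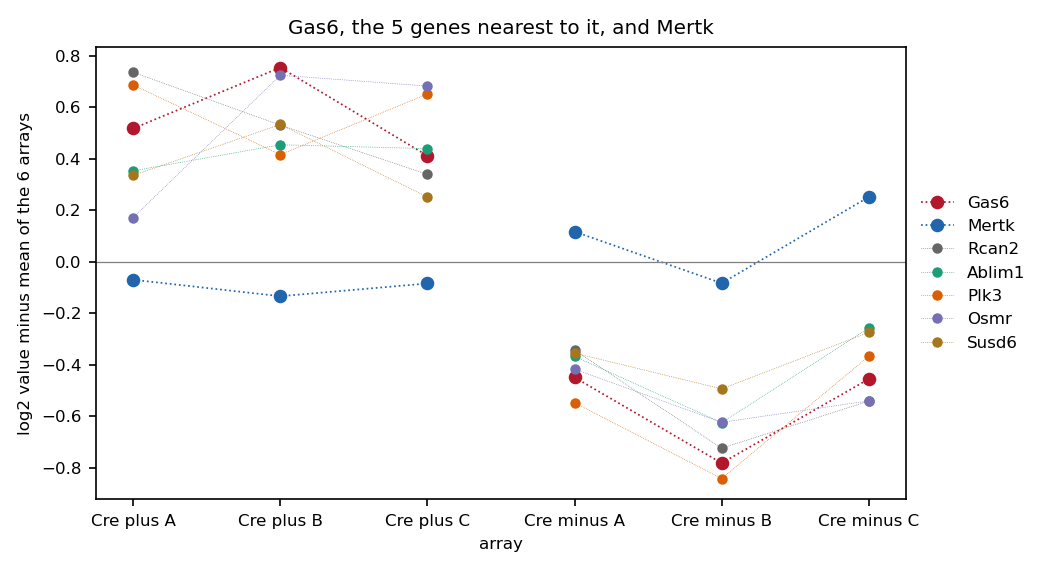
Log2 value minus the gene's mean over the 6 arrays (y axis) on each array (x axis) for Gas6, the 5 nearest genes and Mertk. Dotted lines only join points of 1 gene within a group. The 5 genes follow Gas6 within a root mean square difference of 0.20, and Mertk runs at 0.67 from it.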

How the data were processed

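The authors deposited log2 values made with GCRMA, per the submitters' processing notes (no version is named), a method that models background from probe sequence and brings the arrays to a common distribution. Of 45101 probe sets, 64 control probe sets were left out, 34958 had 1 symbol, 932 several and 9211 none. Symbols came from the platform annotation, checked by Entrez ID against a RefSeq table of GRCm38.p6 (34754 found, 0 changed). Probe sets over a log2 value of 4 on at least 3 arrays were kept, and the brightest kept probe set with 1 symbol stood for a gene. Cre plus was compared with Cre minus by limma 3.58.1 in R 4.3.3 (lmFit, eBayes, no block, two-sided), with Benjamini-Hochberg adjustment over all 8554 genes. Adjusted p-values are limma's. Member probe sets were fitted with all kept probe sets, those under the filter included, and carry SE and 95% intervals without p-values.

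Members and lists were chosen with earlier results of these data known. The named genes are the members, Pros1, Ggcx, Vkorc1, Socs3, up to 4 genes per pathway list and up to 2 per marker list by smallest p, and the 5 nearest to Gas6. Other genes named (Vkorc1l1, Proz, F2, F7, F9, F10, Mfge8, Tub, Tulp1, Socs1, Timp1, Acta2, Tagln, Pdgfrb, markers under the filter and Tmem255b) were chosen after their values were seen. Mpeg1, Lyve1, Flt4 and C1qb were chosen in the same way. Listed genes with no probe set here were not analysed here. The alternatives were other scalings, filters, probe set rules, priors and weights, a replicate block, and each array left out. The fit was also run on simulated data with independent noise for each gene and array, and no result here rests on it.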

Additional observations from a re-analysis of the deposited data

How the results depend on the processing

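Gas6 was higher and Mertk and Axl were lower in Cre plus under all 12 alternatives run for each. The differences ranged from 0.56 to 1.20 for Gas6, from -0.28 to -0.11 for Mertk and from -0.56 to -0.18 for Axl. The Gas6 value of 0.56 is the mean over its probe sets, 1 of which lies at the bottom of the scale. Some of the 12 alternatives could not change a difference. In this balanced design the replicate block returns the same difference. The rule that drops the _x_at, _s_at and _a_at kinds picked the same probe set for Gas6, Mertk and Axl. Mertk has a single probe set, so the mean over its probe sets is the same value. Tyro3 ranged from -0.01 to 0.00 under 11 alternatives, with no value for the rule that drops _a_at probe sets, since both of its are of that kind. The count of genes past the adjusted threshold, 2 as reported, was 0 with no filter and 0 without the _x_at, _s_at and _a_at kinds, and 56 when the log2 minimum was 6, and it ranged from 0 to 13 with 1 array left out (13 without Cre plus B). The cause of these changes was not tested. Among related genes the count past it, 0 as reported, was 1 (Abca1) with that minimum. The 4 higher at an unadjusted p became 2 with the mean of all kept probe sets and ranged from 2 to 5 with 1 array left out, at 2 without Cre plus A or Cre minus C. The 6 lower ranged from 3 to 8, at 3 without Cre minus A or Cre minus C. The arrays share letters but no label pairs them. Deviations of same-letter arrays correlated at -0.15, -0.10 and 0.02 over genes, and 0 of 3 Cre plus arrays lay closest to their own letter. With the replicate block 0 genes passed and 3 related genes were lower at an unadjusted p. With 3 arrays per group and no read depth, the number of arrays limits precision, and the dim Axl and Tyro3 probe sets cannot show a change.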
